A study of Mus musculus with 6 samples.

Results

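The VEGF and angiopoietin genes, 9 genes of vessel growth signaling, were followed through single cells of a mouse oral carcinoma. The ligand genes were Vegfa, Vegfb, Vegfc, Pgf and Angpt2, and the receptor genes were Kdr, Flt1, Nrp1 and Tek. They were taken by symbol from the deposited count matrix, and all 9 were found among its 32285 genes. Each is read here as raw UMI counts (unique molecular identifiers, 1 per captured transcript), across cell classes set by marker genes and across states of the carcinoma cells.

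The tumors were grown from MOC-2, a mouse line of head and neck squamous carcinoma, placed under the skin of male mice. The 6 tumors were 3 given vehicle and 3 given what the labels call an experimental agent, all by injection into the tumor and all taken 24 h later. The reagents listed for the study are Copper(II) diethyldithiocarbamate, 2-C1-IB-MECA, 2'3'-c-di-AM(PS)2, 5'ppp-dsRNA/Lyovec, R848, galunisertib, epcadostat, Nw-Hydroxy-nor-L-arginine, L-NMMA, clodronate and 4-1BB ligand, and the labels do not say which of them these tumors received. Live cells were sorted, tagged by tumor, pooled and sequenced from the 3' ends of transcripts, and the pool was deposited as 1 matrix. Barcodes in it end in a number from 1 to 6, and cells that share a number are called a barcode set. No label ties a barcode set to a tumor, so vehicle and treated tumors could not be told apart here, and the pool is described as 1 sample with no test. Values per barcode set are given to show the spread. The 6 sets share 0 barcodes.

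Vascular endothelial growth factors are secreted proteins that drive the growth and leakiness of vessels. Vegfa acts mainly through the receptor tyrosine kinase Kdr on endothelial cells, whereas Flt1 binds Vegfa, Vegfb and Pgf tightly but signals weakly and is also made as a soluble trap. Nrp1 is a co-receptor that helps Kdr bind Vegfa, and Vegfc signals mainly through Flt4 on lymphatic vessels. Tek is the angiopoietin receptor of endothelial cells. Its ligand Angpt1, made by cells around vessels, keeps vessels quiet, and Angpt2, stored in endothelial cells, opposes it in many settings. Counting transcripts at their 3' ends does not separate splice forms, so soluble and membrane Flt1, or the isoforms of Vegfa, are counted together.

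On mouse build mm10 with GENCODE annotation, Vegfa lies on chromosome 17 (46016993 to 46032369, minus strand), Pgf on chromosome 12 (85166635 to 85177790, minus), Kdr and Flt1 on chromosome 5 (75932827 to 75978458 and 147561604 to 147726011, both minus) and Tek on chromosome 4 (94739289 to 94874976, plus). Vegfb lies on chromosome 19 (6982473 to 6987651, minus) and Vegfc, Angpt2 and Nrp1 on chromosome 8 (54077606 to 54187096, plus, 18690263 to 18741562, minus, and 128358604 to 128503363, plus). The 250 bases before the start of these 5 genes are printed here from RefSeq, on build GRCm38.p6. Kdr, Flt1 and Tek are shown because their levels peaked in the same class of cells, and Vegfa and Pgf because they are set against hypoxia genes below. Each sequence runs 5' to 3' on the strand of its gene. Capitals mark matches, which may touch or overlap, on either strand of the GC box GGGCGG, the ETS hexamer AGGAAG, the hypoxia factor core ACGTG and TATAAA.
Vegfa, chr17:46032378-46032627, minus strand: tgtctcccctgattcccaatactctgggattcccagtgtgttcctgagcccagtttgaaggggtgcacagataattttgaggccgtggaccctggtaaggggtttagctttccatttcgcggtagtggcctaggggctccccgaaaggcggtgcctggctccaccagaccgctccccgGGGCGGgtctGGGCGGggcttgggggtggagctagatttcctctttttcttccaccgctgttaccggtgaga
Pgf, chr12:85177314-85177563, minus strand: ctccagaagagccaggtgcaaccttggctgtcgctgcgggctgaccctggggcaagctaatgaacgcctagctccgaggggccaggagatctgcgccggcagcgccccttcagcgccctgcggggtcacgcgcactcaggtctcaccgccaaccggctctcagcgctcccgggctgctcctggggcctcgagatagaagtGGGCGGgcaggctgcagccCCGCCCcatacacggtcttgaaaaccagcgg
Kdr, chr5:75978456-75978705, minus strand: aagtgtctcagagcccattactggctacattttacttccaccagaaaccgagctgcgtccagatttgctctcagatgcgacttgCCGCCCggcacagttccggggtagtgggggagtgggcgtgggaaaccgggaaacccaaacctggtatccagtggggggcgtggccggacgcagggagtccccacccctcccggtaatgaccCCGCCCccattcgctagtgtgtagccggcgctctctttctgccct
Flt1, chr5:147726012-147726261, minus strand: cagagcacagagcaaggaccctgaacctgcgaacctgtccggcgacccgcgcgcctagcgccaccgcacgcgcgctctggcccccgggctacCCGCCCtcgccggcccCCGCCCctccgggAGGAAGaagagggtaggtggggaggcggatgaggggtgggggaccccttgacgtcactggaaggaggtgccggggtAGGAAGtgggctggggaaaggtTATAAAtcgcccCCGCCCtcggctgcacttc
Tek, chr4:94739039-94739288, plus strand: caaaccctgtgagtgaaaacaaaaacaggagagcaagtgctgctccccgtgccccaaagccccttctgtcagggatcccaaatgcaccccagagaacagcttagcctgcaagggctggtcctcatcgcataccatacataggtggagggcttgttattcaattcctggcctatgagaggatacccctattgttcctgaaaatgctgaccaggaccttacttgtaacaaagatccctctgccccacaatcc
RefSeq start windows were matched for 8 of the 9 genes. The GC box was found in the windows of Vegfa and Kdr (2 matches each), Pgf (2) and Flt1 (3), and it is in 32.7% of the 32851 windows of this length. Tek's window held none of the 4 motifs, and its GC content was 51.2%, near the median of all windows (52.4%). The windows of Vegfa, Kdr, Pgf and Flt1 were richer in GC, at 59.2, 61.6, 68.4 and 70.4%. The ETS hexamer was found 2 times in the Flt1 window and TATAAA 1 time, against 29.5 and 12.4% of all windows with a match. ACGTG was in none of these 5 windows and in 16.6% of all. RefSeq gives Vegfa another start, whose window (not printed) holds 1 ACGTG match. A match of letters is a description only and shows no binding.

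The matrix held 14818 cells, of which 13768 passed the cell filters, and the median was 8379.5 UMIs per kept cell. The 6 sets kept 2889, 2211, 832, 3783, 2704 and 1349 cells. Set apart as mixed were 561 cells (4.07%). These carried markers of more than 1 class, a host class with 2 or more Xist UMIs, or Xist and Y-linked UMIs without a class. A further 11 that a doublet caller marked were also set apart, which left 13196 analysed cells. The largest class was carcinoma-like, 7819 cells with a Xist UMI, no Y-linked UMI and no host class, since the hosts were male. The vessel classes were endothelial-like (59 cells) and pericyte or smooth muscle-like (65). The other host classes were fibroblast-like (325), macrophage or monocyte-like (1811), osteoclast-like (177), neutrophil-like (61), dendritic-like (100), mast or basophil-like (73), T-like (384) and NK-like (292). Levels are UMIs of a gene per 1000000 UMIs of the class (CPM) with an exact 95% Poisson interval, which covers counting error only. A further 1812 cells met no class and had neither a Xist nor a Y-linked UMI. Their Vegfa level was 203 CPM. A gene is called higher or lower in a class at 2-fold or more against all other analysed cells.

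Endothelial-like cells were few and stood highest for Kdr, Flt1, Tek, Angpt2 and Pgf. In this class 6 of the 9 genes were higher, namely Kdr, Flt1, Nrp1, Tek, Angpt2 and Pgf, where 11.9% of all tested genes were. Vegfa and Vegfb were lower there, as were 8.47% of all genes, and Vegfc at 13.8 CPM met neither call. The endothelial name rests on 13 markers, all of them detected, and 21 cells lay within 25% of its cut-off, on either side. A Xist UMI was found in 1.69% of the class. Cells of a host class with 2 or more Xist UMIs had been set apart before, so this low share does not measure purity.

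In carcinoma-like cells 0 of the 9 genes were higher, where 2.86% of all genes were, and Angpt2, Kdr and Tek were lower, where 13.6% were (Angpt2 at 0.412 of the other cells, and 0.526 without set 1). In macrophage or monocyte-like cells Vegfb, Vegfc, Angpt2, Flt1 and Nrp1 were lower, but so were 28.7% of all genes. T-like cells had 0 members higher (12.7% of genes) and 7 lower (18.7%), NK-like cells 0 higher (10.8%) and 5 lower (20.1%), and neutrophil-like cells 0 in either direction (6.86 and 10.7%). Angpt2, with 0 UMIs in both T-like and NK-like cells, met the call there at the floor of 3 UMIs and lost it when any one set was left out. Dendritic-like cells had Pgf and Kdr higher (8.73%) and 4 members lower (9.88%). Within 25% of the dendritic gate's cut-off lay 415 cells, for a class of 100. For the neutrophil gate it was 64 cells, for a class of 61, so both classes are loosely bounded.

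**Figure D1:**
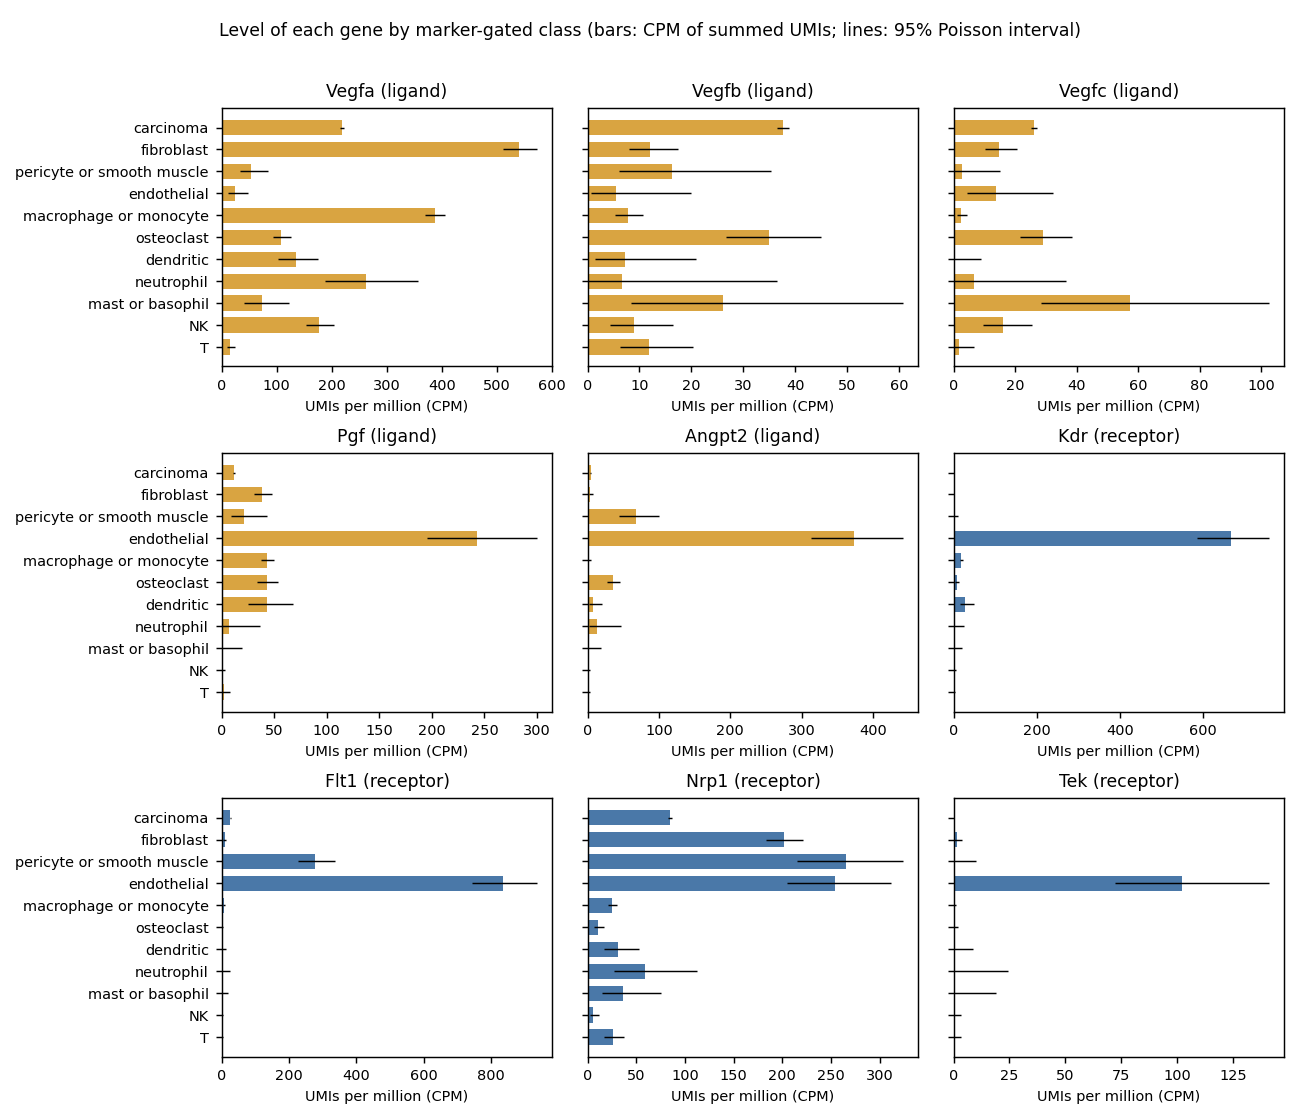
Level of each gene in the 11 marker-gated classes, as CPM of summed UMIs (bars) with the 95% Poisson interval (lines), ligands in yellow and receptors in blue. Kdr, Flt1, Tek, Angpt2 and Pgf have their longest bar in endothelial-like cells, Vegfa in fibroblast-like and then macrophage or monocyte-like cells.

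Vegfa, the main driver of vessel growth, had a UMI in every class named above. It stood at 541 CPM in fibroblast-like cells (511 to 573, from 1222 UMIs), 388 CPM in macrophage or monocyte-like cells (370 to 407) and 219 CPM in carcinoma-like cells (216 to 222, from 22345 UMIs). Neutrophil-like cells, at 262 CPM (187 to 357, from 40 UMIs), could not be placed apart from carcinoma-like cells. The order then ran through NK-like (177 CPM), dendritic-like (135), osteoclast-like (109) and mast or basophil-like cells (72.8). At the low end were pericyte or smooth muscle-like cells (54.2, and 35.3 without set 4), endothelial-like cells (24.9, from 9 UMIs) and T-like cells (15.5, and 9.52 without set 6). Neighbours below NK-like cells had overlapping intervals, so their order is not resolved at this depth. The endothelial-like cells, highest for Kdr, Flt1 and Tek, thus had one of the lowest Vegfa levels.

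Vegfa in fibroblast-like cells was 560, 593, 404, 408, 716 and 553 CPM in barcode sets 1 to 6, and in macrophage or monocyte-like cells 485, 665, 399, 295, 365 and 278 CPM. Carcinoma-like cells varied less, at 197, 261, 241, 204, 240 and 182 CPM. Both host classes lay above carcinoma-like cells in 6 of 6 sets, and fibroblast-like above macrophage or monocyte-like cells in 5 of 6. Against all other cells the level was 2.49-fold in fibroblast-like and 1.79-fold in macrophage or monocyte-like cells, so only the first met the call, and with Leiden clusters in place of gates it was 1.97-fold and did not. Members higher in fibroblast-like cells were Vegfa, Pgf and Nrp1, beside 10.9% of all genes, and Vegfb, Kdr and Flt1 were lower, beside 15.4%. These calls were not firm: Nrp1 was 1.91-fold with Leiden clusters, Pgf 1.87-fold without set 3, and Vegfb and Flt1 were 0.553 and 0.541 of the other cells with Leiden clusters. Kdr, with 0 UMIs, was called at the floor and lost the call without set 1, 3, 4 or 5. Some cells in the fibroblast gate carried a Xist UMI (8.92%), against 59.4% with a Y-linked UMI, and their part in the Vegfa level was not tested. Cells with 2 or more Xist UMIs had already been set apart, so the 8.92% holds only cells with a single Xist UMI. Within 25% of the gate's cut-off lay 350 cells for the fibroblast and 316 for the macrophage or monocyte gate, so both classes are ranges with many cells near their edge.

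Shares of cells with a Vegfa UMI depend on depth, so each cell was thinned to 1000 UMIs. Before thinning the share was 73.3% of carcinoma-like cells (median 11419 UMIs), 73.8% of fibroblast-like cells (6466) and 42.9% of macrophage or monocyte-like cells (2081). After it the shares were 18.5, 35.4 and 27.2%, in the order of the CPM values. T-like cells had 3.91% before and 1.99% after thinning (0.805 to 4.07%, median 2024 UMIs). NK-like cells had 38% before and 14.8% after (10.9 to 19.5%, median 3048 UMIs), above T-like cells of a like depth. RNA from outside the cells was not measured, and its part in either share was not tested.

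Summed over cells, carcinoma-like cells held most Vegfa, with 75% of its 29809 UMIs, while macrophage or monocyte-like cells held 5.91% and fibroblast-like cells 4.1%. Carcinoma-like cells also held 76.5% of all UMIs analysed, so the 2 shares were close.

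Vegfb, a ligand of Flt1 and Nrp1 with little effect on vessel growth, had a different order. It was at 37.7 CPM in carcinoma-like cells (3847 UMIs, 81.6% of its total) and 34.9 CPM in osteoclast-like cells, and these did not differ beyond counting error. Fibroblast-like cells had 12 CPM, T-like cells 11.9 and macrophage or monocyte-like cells 7.70. Carcinoma-like cells ranged over sets from 32.9 to 43.1 CPM and lay above both fibroblast-like and macrophage or monocyte-like cells in 6 of 6 sets, the reverse of Vegfa.

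Vegfc, the lymphatic growth factor, was at 26.1 CPM in carcinoma-like cells (2662 UMIs, 79.7% of its total) and 29.1 CPM in osteoclast-like cells. Over the sets carcinoma-like cells had from 22.1 to 31.8 CPM, above fibroblast-like cells (14.6 CPM pooled) and macrophage or monocyte-like cells (2.42 CPM) in 6 of 6. The highest level was in mast or basophil-like cells, 57.2 CPM (28.6 to 102), from 11 UMIs in 10 cells. It was the only one of the 9 genes called higher in that class, where 5.23% of all genes were, while Vegfa and Nrp1 were lower there, as were 12.5%. The Vegfc call (2.29-fold) was lost at 1.62-fold (41.5 CPM) without set 1, at 1.56-fold under a stricter cell filter and at 1.92-fold with Leiden clusters. Nrp1 there rests on 7 UMIs, and its level of 36.4 CPM was 72.1 CPM without set 2, 0.919 of the other cells. Dendritic-like cells had no Vegfc UMI.

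Pgf, a Flt1 ligand known from placenta and from tumor stroma, was at 243 CPM in endothelial-like cells (195 to 300, from 88 UMIs), 17.5-fold over all other cells. Its UMIs there came from 18 of the 59 cells, with up to 21 in a single cell. Barcode set 1, with 20 of the cells, gave 53 of the UMIs and a level of 403 CPM, and without it the level was 152 CPM. The other sets ran from 67.3 to 200 CPM, each above the pooled level of the next class.

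Behind endothelial-like cells, Pgf had overlapping intervals over macrophage or monocyte-like (43.1 CPM, 196 UMIs), osteoclast-like (43.1), dendritic-like (42.7) and fibroblast-like cells (38.5). In macrophage or monocyte-like cells it was 96.8, 53.4, 28.9, 16.9, 22.4 and 45.4 CPM over the sets, and 27.6 CPM without set 1, while osteoclast-like cells without that set had 67.8 CPM. In fibroblast-like cells it was 19.0, 11.7, 142, 15.9, 54.6 and 52.7 CPM, so the 2 classes changed places from set to set. Both lay above carcinoma-like cells (11.8 CPM pooled, 7.51 to 15.5 over sets) in 6 of 6 sets. NK-like cells had no Pgf UMI, with an upper bound of 3.31 CPM.

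Angpt2, the ligand that acts on Tek, had its highest levels in the vessel classes. It stood at 373 CPM in endothelial-like cells (313 to 442, from 135 UMIs in 32 of 59 cells) and at 67.8 CPM in pericyte or smooth muscle-like cells (25 UMIs). Osteoclast-like cells followed with 35.5 CPM (61 UMIs), and in the 3 sets with at least 20 of them the level was 29.1 to 35.2 CPM. Carcinoma-like cells were at 4.14 CPM and T-like, NK-like and mast or basophil-like cells had no UMI. Set 1 had the highest endothelial-like level, 548 CPM, and without it the level was 274 CPM. Of the 25 UMIs in pericyte or smooth muscle-like cells, 14 were in set 3, and without that set the level was 36.2 CPM. Osteoclast-like cells also met the call for Pgf and Kdr, 3 members in all where 10% of genes did, and for lower Vegfa, Flt1 and Nrp1, where 20.9% did. The Vegfa call there (0.484 of the other cells) was lost without set 1 or set 2 (0.519 and 0.511). Their Kdr level rests on 13 UMIs, 10 of them in set 1, and was 7.57 CPM with and 3.28 CPM without that set, which ends the call (1.16-fold).

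**Figure D2:**
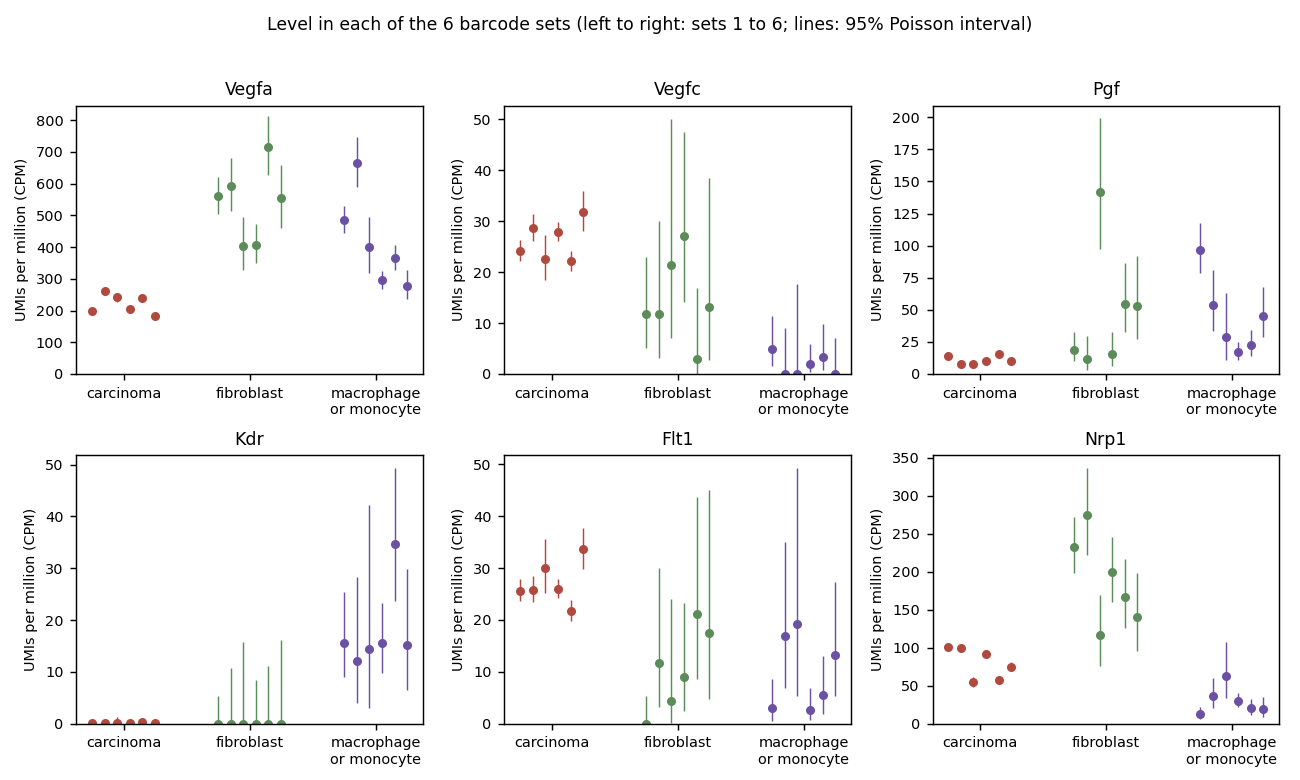
Levels in barcode sets 1 to 6, left to right within each class, with 95% Poisson intervals, for 3 ligands and 3 receptors in 3 classes with at least 20 cells in every set. NK-like cells also had at least 20 in every set and are not drawn. Among the 3 classes drawn, Vegfa lies lowest in carcinoma-like cells in all 6 sets and Vegfc and Flt1 lie highest there. Kdr in macrophage or monocyte-like cells stands apart in set 5 (34.7 CPM).

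Kdr, the main signaling receptor for Vegfa, was close to an endothelial marker here. Its level was 669 CPM in endothelial-like cells (587 to 759, from 242 UMIs), where 52 of 59 cells had a UMI, and that class held 61.7% of all 392 Kdr UMIs. By set it was 532, 498, 437, 1235, 955 and 289 CPM, from 20, 12, 6, 12, 4 and 5 cells. Carcinoma-like cells had 0.157 CPM (16 UMIs in 7819 cells), and fibroblast-like, pericyte or smooth muscle-like, T-like, neutrophil-like and mast or basophil-like cells had none. For fibroblast-like cells the upper bound was 1.63 CPM. Kdr was not one of the 13 genes of the endothelial gate.

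A low Kdr level appeared in myeloid cells. Macrophage or monocyte-like cells had 18.9 CPM (15.1 to 23.4), from 86 UMIs in 73 cells, 21.9% of the gene's total. All 6 sets held such cells, at 15.6, 12.1, 14.4, 15.5, 34.7 and 15.1 CPM. The share of cells with a Kdr UMI was 4.03% before thinning and 1.75% after it (1.18 to 2.50%), while T-like cells of a like depth had 0 of 351, which allows up to 0.855% by 3 counts and 1.05% as the exact 95% upper bound. Of the 73 cells, 8 had a UMI of an endothelial marker (11.0%), against 8.98% of the macrophage or monocyte-like cells without Kdr. Kdr and Pgf were the 2 members called higher in this class, where 13.3% of genes were. Dendritic-like cells had 28.5 CPM from 12 UMIs, 7 of them in set 4, and 13.0 CPM without that set.

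Flt1, the high-affinity receptor and trap, was at 835 CPM in endothelial-like cells (743 to 934, from 302 UMIs in 43 cells). Over the sets it was 882, 368, 1262, 1023, 597 and 72.1 CPM, the last from 5 cells and 2 UMIs. Pericyte or smooth muscle-like cells were second, with 276 CPM (225 to 336, from 102 UMIs in 33 of 65 cells). They had no Kdr and no Tek UMI, and their Flt1 was between 93.9 and 515 CPM in every set. Members higher in this class were Flt1, Nrp1 and Angpt2, where 8.69% of genes were, and Vegfa, Vegfb and Vegfc were lower, where 7.37% were (Vegfb from 6 UMIs, a call lost at 0.555 without set 3 and 0.530 without set 5). The class also carried fibroblast markers, with a median of 139.925 UMIs per 10000, although fibroblast-like cells themselves had just 8.86 CPM of Flt1.

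Carcinoma-like cells also carried Flt1, at 25.8 CPM. Their 2636 UMIs were 75.5% of the gene's total, and the level ran from 21.8 to 33.6 CPM over the sets, above both fibroblast-like and macrophage or monocyte-like cells in 6 of 6. T-like and NK-like cells had 1 UMI each (0.914 and 0.898 CPM), so the carcinoma-like level lay above theirs. The part of RNA from outside the cells was not tested. After thinning, 2.50% of carcinoma-like and 0 of 351 T-like cells had a Flt1 UMI, from 19.8 and 0.260% before.

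Nrp1, the co-receptor shared by vascular growth factors and semaphorins, was above 5 CPM in every class. It stood at 266 CPM in pericyte or smooth muscle-like cells, 254 in endothelial-like cells and 202 in fibroblast-like cells, and neighbours in this order overlapped in their intervals. Carcinoma-like cells had 84.8 CPM (8662 UMIs), macrophage or monocyte-like cells 25.1 and NK-like cells 5.39. Fibroblast-like cells had 233, 275, 116, 199, 167 and 140 CPM by set, above carcinoma-like cells (101, 99.4, 54.3, 92.2, 57.6 and 74.9) in 6 of 6. The 2 classes were both at their lowest in set 3. Nrp1 is also known as a marker of regulatory T cells from the thymus, but T-like cells with a Foxp3 UMI (31 cells) had 1 Nrp1 UMI, 13.0 CPM, against 26.5 CPM in the other 353, which this depth does not separate.

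Tek, the angiopoietin receptor, gave the fewest UMIs. Of its 45 UMIs, 37 were in endothelial-like cells (102 CPM, 72.0 to 141), spread over 25 cells and all 6 sets. Carcinoma-like and fibroblast-like cells had 3 UMIs each and macrophage or monocyte-like cells 1. Within the endothelial-like class every cell with a Tek UMI also had a Kdr UMI (25 cells).

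The other genes of the pathway completed the picture of the class. Flt4, the Vegfc receptor, Tie1, the partner of Tek, and Ptprb, the phosphatase that restrains Tek, were at 213, 174 and 359 CPM in endothelial-like cells, and these 3 of 7 were called higher there, beside the 11.9% of all genes. Vegfd and Angpt1 were called lower there, as were 8.47% of all genes. Each had 1 UMI and was read at the floor of 3 UMIs (0.477 and 0.372 of the other cells). Fibroblast-like cells had the top levels of both, 36.3 and 34.6 CPM. Angpt1 stood next in pericyte or smooth muscle-like (29.8 CPM, 11 UMIs) and carcinoma-like cells (23.2 CPM), whereas Angpt2 peaked in endothelial-like cells. Nrp2, the co-receptor for Vegfc, was highest outside the vessel, in osteoclast-like cells at 797 CPM (1370 UMIs), then in endothelial-like cells at 362. Of 12 genes known to mark tip cells or to respond to Vegfa in vessels, 12 were higher in endothelial-like cells (11.9% of all genes). Among them were Apln at 724, Plxnd1 at 462, Eng at 340, Esm1 at 246 and Dll4 at 232 CPM. The class was gated on endothelial markers, and a response to Vegfa was not tested. Not all were particular to it: Cxcr4 was at 254 CPM there and 396 in macrophage or monocyte-like cells. Notch4, Pdgfb, Plxnd1 and Cxcr4 were also called higher in macrophage or monocyte-like and in osteoclast-like cells. Of 7 angiogenesis inhibitors tested, Timp3, Col18a1, Adamts1 and Sema3f were higher in endothelial-like cells too, while Thbs1 and Thbs2 were lower.

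Setting ligands against receptors, the sum of the 4 receptor genes was 1860 CPM in endothelial-like cells, 542 in pericyte or smooth muscle-like, 212 in fibroblast-like, 111 in carcinoma-like and 50.8 in macrophage or monocyte-like cells. Without the co-receptor Nrp1 the order changed. The sum of Kdr, Flt1 and Tek was 1606, 276, 10.2, 26.0 and 25.8 CPM in these classes. The sum of the 5 ligand genes was 661 CPM in endothelial-like, 610 in fibroblast-like, 444 in macrophage or monocyte-like, 298 in carcinoma-like and 163 in pericyte or smooth muscle-like cells. The endothelial-like ligand sum consisted mostly of Angpt2 and Pgf, and Vegfa led the sums of fibroblast-like, macrophage or monocyte-like and carcinoma-like cells. Per receptor UMI, Nrp1 included, there were 0.355 ligand UMIs in endothelial-like and 0.30 in pericyte or smooth muscle-like cells. The ratio was 2.69 in carcinoma-like, 2.88 in fibroblast-like, 8.73 in macrophage or monocyte-like and 12.7 in osteoclast-like cells. It was highest in NK-like cells, at 28.1 from 8 receptor UMIs. Endothelial-like cells were 0.447% of the cells and held 0.271% of all UMIs, 0.589% of the ligand UMIs and 4.54% of the receptor UMIs. Of the Kdr, Flt1 and Tek UMIs they held 14.8%, and carcinoma-like cells 67.6%. Of all ligand UMIs, carcinoma-like cells held 75.2%, and of those of the 4 receptors 76.3%, both near their share of all UMIs.

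Endothelial-like cells were not uniform. Of the 59, 15 had a UMI of the lymphatic markers Prox1, Mmrn1 or Reln. They came from 5 sets and had a median of 5804 UMIs, against 4647.5 in the other 44. This split was made after its values were seen. Flt1 had 0 UMIs in the 15 and 302 in the 44, where 43 cells carried it at 1146 CPM, so the level was at least 37.5-fold lower in cells with a lymphatic marker (against 3 UMIs in the group). Nrp1 likewise had 0 UMIs in the 15 and 92 in the 44 (349 CPM), at least 11.4-fold lower.

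Kdr was lower in the lymphatic-marker cells but present in most of them: it was in 13 of 15 and 39 of 44 cells, at 458 and 747 CPM. Angpt2 had 204 and 436 CPM. Tek had 61.1 and 118 CPM, from 6 and 31 UMIs, with overlapping intervals, while Pgf had 336 CPM in 6 of 15 cells and 209 CPM in 12 of 44. The reverse held for the Vegfc receptors. Flt4 was at 621 CPM in 14 of the 15 cells and 60.7 CPM in 14 of the 44, 10.2-fold, and Nrp2 at 896 and 163 CPM, 5.50-fold. Tie1 was alike in both, at 173 and 175 CPM. Over all 59 cells, Kdr and Flt1 were found together in 38, Kdr alone in 14 and Flt1 alone in 5. Angpt2 and Pgf were together in 10 of the 32 cells with Angpt2.

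**Figure D3:**
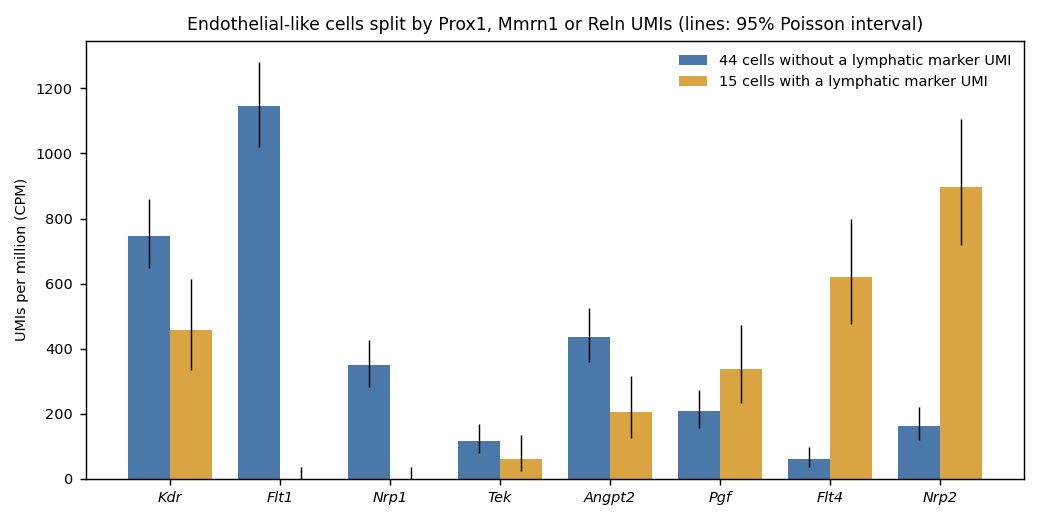
Levels of 6 members and of Flt4 and Nrp2 in the 15 endothelial-like cells with a UMI of Prox1, Mmrn1 or Reln (yellow) and the 44 without (blue), in CPM with 95% Poisson intervals. Flt1 and Nrp1 have no UMI in the first group, and Flt4 and Nrp2 are higher there.

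Carcinoma-like cells were split into 14 clusters without using the 9 genes or the listed pathway and hypoxia genes, and each cluster is called by its 2 leading genes. Vegfa was at 305 CPM in the Penk-Slc7a2 cluster (1164 cells) and 301 in the Tac1-Fibin cluster (1086), and at 265 in the Krt7-Epcam cluster, which led with epithelial genes. It was at 247 CPM in the interferon-response cluster Rsad2-Ifit3, 207 in Tslp-Has1 and 132 in Hist1h1b-Hist1h2ae, the cluster of dividing cells. The lowest, 94.0 CPM in Krt5-Prl2c5, rests on 54 cells of which 48 were in set 3, and the 6 cells outside that set had 258 CPM. Among clusters of over 100 cells Vegfa thus ran from 132 to 305 CPM.

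Nrp1 had a wider range between these clusters. It stood at 163 CPM in Tac1-Fibin, 2.25-fold over the other carcinoma-like cells where 3.35% of genes were as high, at 130 in Penk-Slc7a2, 63.4 in Krt7-Epcam and 47.5 in Rsad2-Ifit3. Vegfc was highest in Penk-Slc7a2, 43.8 CPM. Flt1 was at 37.5 CPM in Tslp-Has1, 9.43 in Krt7-Epcam and 4.2 (11 UMIs, 2.06 CPM without set 4) in Dmp1-Abcg2. Pgf had 3.96 CPM in Krt7-Epcam (21 UMIs, 2.63 CPM without set 3). Of the 14 clusters, Fcer1g-Ccl3 and Gzmc-Nkg7 carried leukocyte genes (1545 and 911 CPM) and Col1a2-Cxcl13 (32 cells) fibroblast genes.

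The cluster Ero1l-Sprr2h (409 cells) carried the hypoxia program: of 17 hypoxia genes, 13 were at 2-fold or more, where 3.53% of all genes were, and their summed level was 5518 CPM against 1893. The median fold was 3.61 over the list and 0.969 over all genes tested. The cluster was named hypoxic from this same list, so these values describe the choice. Ero1l, a disulfide oxidase, was at 955 against 103 CPM and Bnip3, a mitophagy receptor, at 432 against 69.0 CPM. Both are known targets of hypoxia factors, as is Vegfa. Yet Vegfa was at 219 CPM in this cluster and 219 in the other carcinoma-like cells, a fold of 1.00. In the 5 sets with at least 20 such cells (1, 2, 4, 5 and 6) the fold was 0.948, 0.975, 1.02, 1.26 and 1.16, on both sides of 1.

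Pgf did differ in the hypoxic cluster, with 53.5 CPM against 9.81, 5.45-fold. By set the fold was 5.17, 0.933 (from 2 UMIs), 6.72, 4.93 and 4.94. Flt1 was at 47.4 against 24.8 CPM, 1.91-fold, whereas Nrp1 was at 25 against 87.7 CPM, 0.285 of the other cells, and Angpt1 at 7.11 against 24.0 CPM. Set 1 held 210 of the 409 cells. Without set 1 the same cluster gave 5.58-fold for Pgf, but when the cells were clustered anew without it the most hypoxic cluster had 497 cells and a Pgf fold of 2.15.

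**Figure D4:**
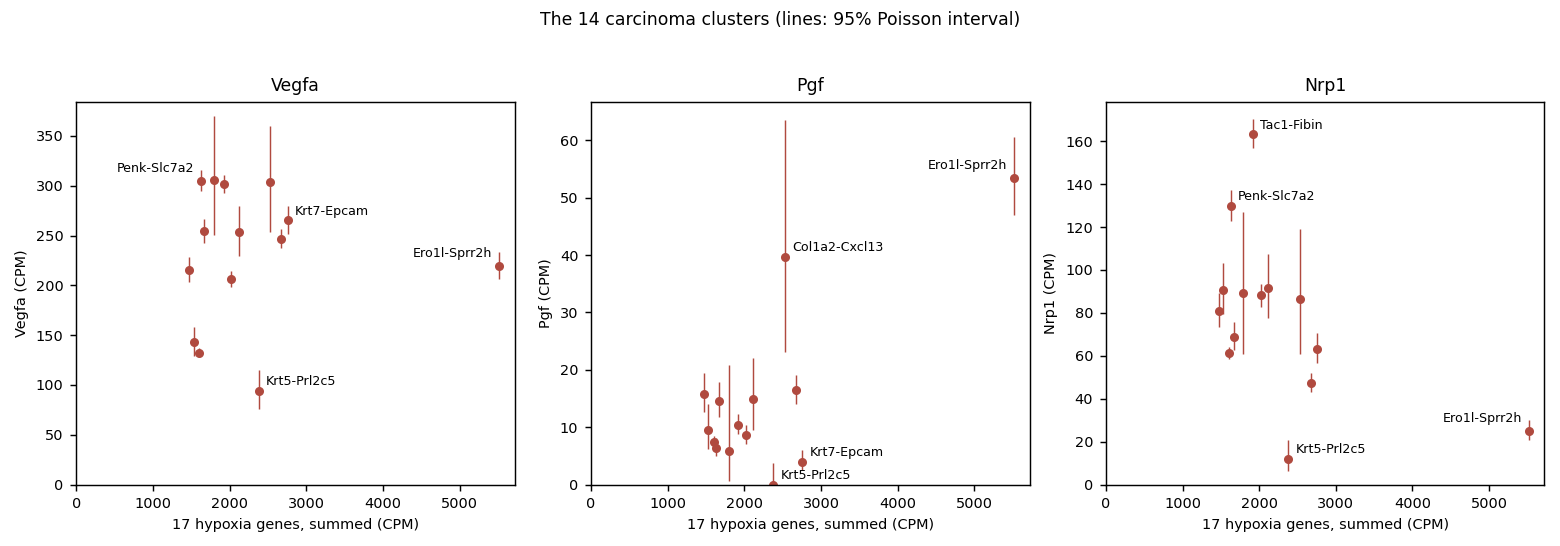
Vegfa, Pgf and Nrp1 (vertical, CPM with 95% Poisson intervals) against the summed level of 17 hypoxia genes (horizontal, CPM) in the 14 carcinoma-like clusters. The hypoxic cluster Ero1l-Sprr2h lies far to the right, in mid-range for Vegfa, highest for Pgf and low for Nrp1.

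Ranked by the hypoxia genes' share of each cell's own UMIs, in place of clusters, Vegfa did rise. Carcinoma-like cells were cut within each set into 5 bins of near equal size, which are ranges of a score and not cell types. From the lowest to the highest bin, Vegfa was 169, 178, 202, 238 and 304 CPM, 1.80-fold from end to end, and higher in the top than the bottom bin in 6 of 6 sets. Pgf was 6.21, 7.32, 7.76, 9.45 and 29.1 CPM, 4.68-fold, also in 6 of 6. With the sets pooled, Pgf therefore changed mainly in the top bin and Vegfa step by step. By set, Vegfa rose at every step only in sets 5 and 6. It fell from the first to the second bin in sets 3 and 4 (140 to 114 and 176 to 165 CPM). A drop also came from the second to the third bin in set 2 (251 to 237) and at the top in set 1 (235 to 230).

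Nrp1 went the other way, at 92.9, 90.8, 90.8, 85.0 and 63.9 CPM, and was higher in the top bin in just 1 of 6 sets. Vegfc was at 31.4 CPM in the bottom and 23.0 in the top bin, higher at the top in 1 of 6, Vegfb at 35.8 and 41.3 CPM, and Flt1 at 25 and 37 CPM. Median depth was 8532, 12777, 12962, 12716 and 10717 UMIs per cell over the bins, lower at both ends, and its part in these values was not tested.

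In macrophage or monocyte-like cells Vegfa was at 255, 251, 414, 495 and 538 CPM over their bins, 2.11-fold from end to end, with no step between the first and second bins. The top bin lay above the bottom in 6 of 6 sets, but below the next bin down in sets 3, 4 and 6 (in set 6, 272 against 319 CPM). Pgf went from 20.0 CPM in the bottom bin to 67.4 in the middle one and 42.6 at the top, and Nrp1 was at 9.74 CPM at the top (8 UMIs, against 32 in the bottom bin) and at 22.4 to 30.6 CPM in the middle bins. Median depth there was 1844 to 2249 UMIs per cell. Their cluster with most hypoxia RNA, Ccl24-Slc7a2 (317 cells), had 8 of 17 hypoxia genes at 2-fold or more, where 2.56% of genes were. It was picked by the summed level of these genes, so that count describes the pick. Vegfa there was at 805 CPM against 316 in the others, 2.55-fold. By set (1 to 5) the fold was 1.96, 2.06, 1.46, 2.89 and 2.55. The value depends on where the cluster is drawn: with the same gates and a Leiden resolution of 1.5 the most hypoxic cluster held 127 cells and gave 1.11-fold, and clustering anew without set 4 gave 1.38-fold. Vegfa was at 157 CPM in Ccl2-Ly6c2, led by monocyte genes, and 203 in Fcrls-Vcam1. A higher Vegfa level in the top than the bottom bin was thus seen in both classes, while the hypoxic cluster of carcinoma-like cells had a fold of 1.00.

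**Figure D5:**
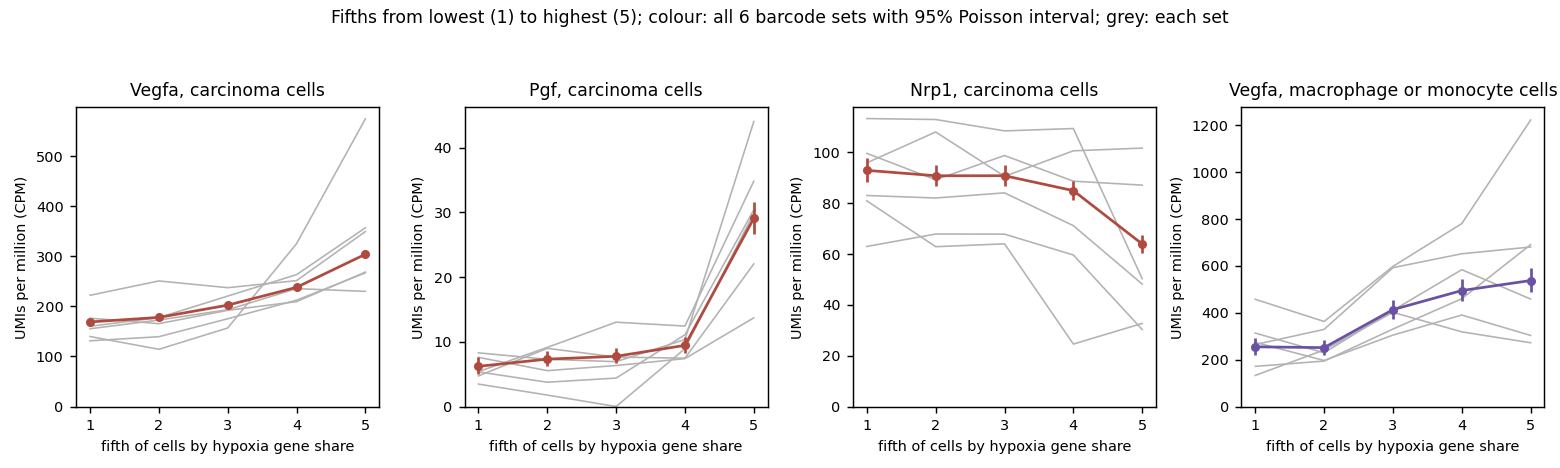
Levels in the 5 bins of cells, from the lowest (1) to the highest (5) share of hypoxia genes, with all sets pooled (coloured, 95% Poisson intervals) and each barcode set (grey), in CPM. Vegfa is higher in the top than the bottom bin in both classes, and in carcinoma-like cells Pgf rises mainly in the top bin and Nrp1 falls.

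Other members also differed between macrophage or monocyte-like clusters. Pgf was at 166 CPM in P2ry10-Ccr7 (161 cells) against 29.0 in the others, 5.72-fold where 3.55% of genes were 2-fold higher, and 4.22 CPM in Ccl2-Ly6c2 (3 UMIs). Of its 78 UMIs in P2ry10-Ccr7 just 19 lay outside set 1, and without set 1 the fold was 3.18. This cluster's leading 10 genes include Ccr7, H2-Ab1, H2-Eb1 and H2-Aa, which also lead the dendritic-like class. They were ranked against the other cells of the gate only, and H2-Eb1 also led the Ccl5-Hspa1b cluster. Whether the cells of P2ry10-Ccr7 are dendritic was not tested. Kdr was at 80.9 CPM (22 UMIs) in the interferon-response cluster Ifit1bl1-Rsad2 against 15.0, 5.40-fold where 5.32% of genes were 2-fold higher, and without set 5 it was 7.11-fold. That cluster had 60 of its 126 cells in set 5. Kdr was at 31.2 CPM in Fcrls-Vcam1 (21 UMIs), a fold of 1.86, and 1.21 without set 4.

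By the correlation of log2(CPM + 5) over 24 classes and carcinoma clusters, the genes most like each member were as follows, as a description of points that share libraries and, for the clusters, a lineage. Tek was most like Myct1 (Pearson's r 0.985), Kdr like Cldn5 (0.938), Flt1 like Tspan12 (0.949) and Angpt2 like Nts (0.910). Nrp1 was most like Heg1 (0.901), Vegfb like Naxd (0.915), Vegfa like Ptgs2 (0.811), Pgf like Plekho1 (0.809) and Vegfc like Spcs3 (0.803). Myct1 and Cldn5 are among the markers of the endothelial gate.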

How the data were processed

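A single matrix was deposited, holding raw UMI counts (whole numbers, gene by cell). Per the file headers it came from Cell Ranger 7.0.0, while Cell Ranger 7.1, Seurat and mm10 stand in the submitters' processing notes and Seurat 4.1.0 in the series text. Filters on cells before deposit are not given in the sources used here. The 12 multiplexing tags were not used, and 0 columns came from other samples.

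Kept cells had 500 or more genes detected and a mitochondrial share below 15%. A cell joined a class when the class's markers reached a cut-off per 10000 UMIs (15 for endothelial, 250 for fibroblast, 20 for macrophage or monocyte), with at least 3 UMIs over at least 2 markers. A cell whose next class reached 0.5 of its first was set apart as mixed, as was a host-class cell with 2 or more Xist UMIs. The scrublet doublet caller in scanpy 1.11.5 marked 21 cells (0.153%), too few to have worked, so doublets may remain. Folds use a floor of 3 UMIs and genes with at least 20 UMIs (15918). For shares of cells, cells were thinned to 1000 UMIs and 324 shallower ones left out. Clusters are Leiden clusters (leidenalg 0.10.2, resolution 0.8, 3000 variable genes, 40 components). Likeness used genes with at least 200 UMIs, the 3 most alike per member. Python 3.11.15, numpy 2.4.6, scipy 1.17.1 and pandas 2.3.3 were used, and the steps were tested on simulated counts.

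The members and gene lists were chosen with earlier results of these data known, and gate cut-offs after seeing the data. Any listed gene with at least 50 UMIs could be named. Alternatives tried were 2 other cell filters, Leiden clusters in place of gates, mixed cells kept, a mean of the cells' own CPM and leaving out each barcode set. The edgeR test of treated against vehicle tumors, planned should cells be tied to tumors, was not run because they could not be. Intervals for CPM are exact Poisson and for shares exact Clopper-Pearson, both at 95%.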

Additional observations from a re-analysis of the deposited data

Results flagged for a closer look

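A pair of values stood apart among the 6 barcode sets by Dixon's gap criterion, which chance passes in about 1 of 20 groups. Several genes and classes were screened in this way, so a few such values are expected by chance. Kdr in macrophage or monocyte-like cells of set 5 was at 34.7 CPM, while the other sets ran from 12.1 to 15.6 CPM. Of the 126 cells of the interferon-response cluster that had the highest macrophage Kdr, 60 were in that set, and their part in the value was not tested. Pgf in fibroblast-like cells of set 3 was at 142 CPM, while the other sets ran from 11.7 to 54.6 CPM.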

How the results depend on the processing

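Of 217 alternative values, 154 stayed within their interval or within 1.5 times the main count and 63 moved. The 6 members were called higher in endothelial-like cells in every alternative run. The share of Kdr UMIs in endothelial-like cells (61.7%) was 66.7% under a stricter cell filter (1000 genes, 10% mitochondrial), 46.0% as a mean of the cells' own CPM and 56.5 to 69.3% without each set. The carcinoma-like share of ligand UMIs (75.2%) was 76.9% with the stricter filter, 85.3% with Leiden clusters in place of gates and 72.4% with mixed cells kept. It was 56.7% as a mean of cells and 72.9 to 76.8% without each set. Leiden clusters put 9537 cells in the carcinoma class, against 7819 by gates. A mean of cells weighs cells alike, and carcinoma-like cells were 59.3% of analysed cells. Their 76.5% of all UMIs is therefore not the baseline for these 2 settings. The endothelial-like share of receptor UMIs (4.54%) was 7.90% as a mean of cells, 4.21% without the lymphatic-marker cells (an alternative chosen after seeing the data) and 3.95 to 5.13% without each set. The Vegfa fold of the hypoxic carcinoma cluster (1.00) was 1.13 with the stricter filter and 0.976 to 1.15 without each set, and its Pgf fold (5.45) was 2.15 to 7.19 without each set. Vegfa in fibroblast-like cells (541 CPM) was 430 CPM with Leiden clusters and 481 CPM with mixed cells kept. Set 1 carried much of the endothelial-like Pgf, and 11 UMIs carry Vegfc in mast or basophil-like cells. Of the 2-fold calls, those in endothelial-like cells were kept in the settings run. Calls lost are given beside the results, except that with mixed cells kept Angpt2 in macrophage or monocyte-like cells (0.507 of the other cells) and Vegfb and Nrp1 in dendritic-like cells (0.611 and 0.724) were no longer called lower. The causes were not tested. No paired analysis was possible because no label ties cells to the numbered tumors and no result comes from a test.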
